A study of Mactra quadrangularis with 6 samples.

Results

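Animal cells are held in place by secreted proteins around them and by receptors that span their membranes. Collagens, laminins, nidogens, fibrillins and hemicentins build the extracellular matrix and the basement membrane, and integrins, paired alpha and beta chains, bind that matrix outside the cell and the actin cytoskeleton inside it. Cadherins, contactins and neuroglian join cells to each other, and catenins tie cadherins to actin. In a bivalve the mantle is an epithelium over connective tissue and muscle, and it secretes the shell.

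Genes of these families were taken from the mantle transcriptome of Mactra quadrangularis, a surf clam for which Mactra veneriformis is another name, by words in the description that the deposited table gives each gene (collagen, integrin, laminin, fibrillin, fibronectin, cadherin, neuroglian, hemicentin, nidogen, prolyl 4-hydroxylase, claudin, tight junction, contactin and related words). The rule found 282 of 25145 genes, and 2 further genes matched it but were left out by its exclusion words. A description is the closest match in another species, so it names a relative and not a tested function. The word integrin also matched disintegrin, which brought in 31 proteases of the ADAM and ADAMTS type. They are counted here and described last. The others were 63 cadherins and protocadherins, 58 fibrillins and hemicentins, 55 collagens, 20 integrins and integrin-binding proteins, 20 contactins and neuroglians, 13 prolyl hydroxylases and other enzymes matched by these words, 9 laminins and nidogens, 9 fibronectin-domain proteins and 4 claudin or tight junction proteins.

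Messenger RNA of 6 mantle samples was sequenced, 3 under a label of acidification stress and 3 under a control label. The series text speaks of high pH for the acidified animals, against the label, and of animals with different shell colours, without saying which colour any library had. No pH, dose, duration, animal age or strain is stated. Separate animals are not stated for the libraries. The p-values therefore measure the spread between libraries, which may be technical. Total counts ran from 28482358 to 37066703 per library, which leaves the spread between libraries, and not counting error, as the main limit for all but the lowest genes.

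Of the 282 genes, 195 had enough counts to be tested, 71 had some counts but too few and 16 had none in any library. Levels are given per library as the deposited FPKM, which corrects for transcript length and library size, divided by the library's TMM factor, a scaling that lines up the bulk of genes between libraries. The factors were 0.99, 0.85 and 0.85 in the acidified libraries and 1.09, 1.08 and 1.19 in the controls. On this scale 6 genes had a mean of 100 or more, 35 lay between 10 and 100, 88 between 1 and 10, and 153 under 1. Values in a series below are always libraries 1, 2 and 3 of a group in that order. In bulk tissue, fewer cells of a type and less RNA per cell cannot be told apart.

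No adhesion or matrix gene passed an adjusted p of 0.05 in edgeR's quasi-likelihood test, and neither did any of the 17790 genes tested (0% of them). The smallest adjusted p was 0.118, for members as for all genes. Genes with a p under 0.05 before adjustment are called nominally higher or lower below, and they made up 17.4% of all genes. Nominally higher in the acidified libraries were 14 members (7.18% of 195, against 9.29% of all genes tested) and nominally lower were 28 (14.4%, against 8.13% of all genes). DESeq2, another count test, called 6 members higher and 13 lower at an adjusted p under 0.05 among the 142 to which it gave an adjusted p. Over all genes it called 9.34%, of which 5.37% were higher and 3.97% lower. The groups did not overlap for 23.6% of members, against 25.6% of all genes. They did not for 14 members on the higher side, where 12.2% of all genes did so, and for 32 on the lower side, where 13.4% did. Of the tested members, 4 reached the filter's minimum of 10 counts in the control libraries alone and 1 in the acidified libraries alone, so that a difference was built in, and 3 of the 28 lower members are among them. The median log2 fold change of the members was -0.10, with quartiles of -0.57 and 0.38, beside 0 for all genes. Below, "DESeq2-called" marks genes past that test, and all other differences are values that passed neither adjusted test.

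**Figure D1:**
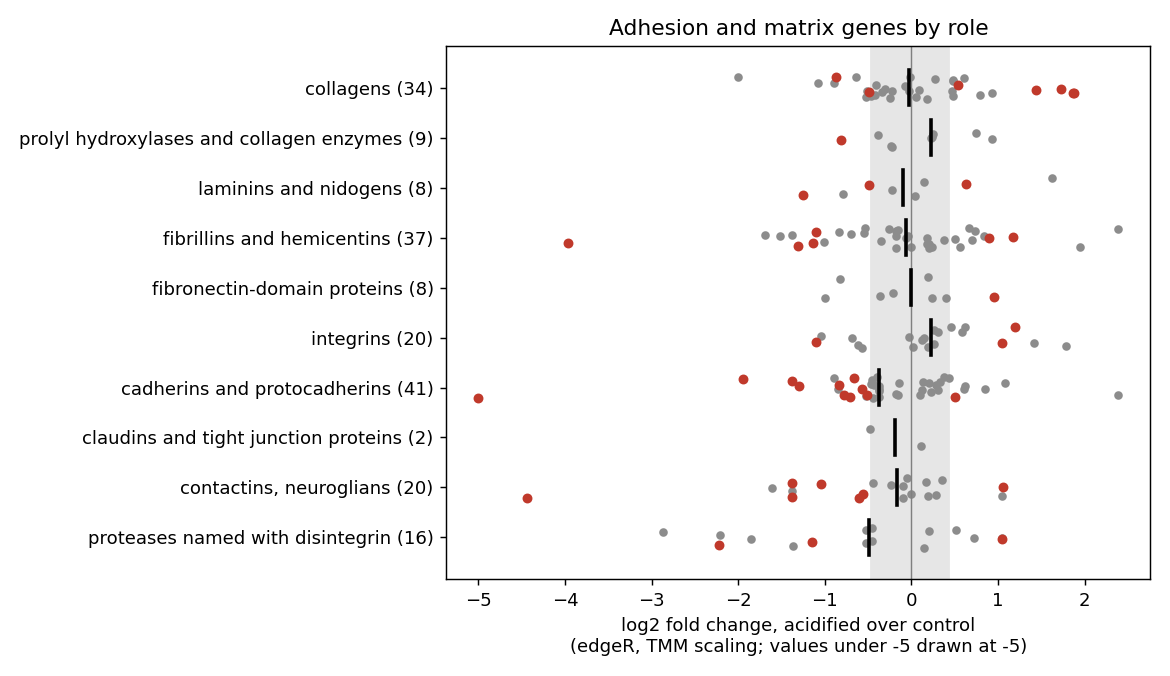
Each point is 1 tested gene, placed by its log2 fold change (acidified over control, edgeR with TMM scaling) in the row of its role, with the number tested in brackets. Red points are nominally higher or lower, black bars are medians, and the grey band spans the quartiles of all genes (-0.47 to 0.43). Cadherins have 10 red points on the lower side and 1 on the higher, and the 1 gene drawn at -5 had no count in the acidified libraries.

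Fold changes went down with transcript length across the whole table, and adhesion genes are long. With all tested genes split by length into classes of equal size, from 1 (shortest) to 10 (longest), 88 of the 195 tested members (45.1%) fell in classes 9 and 10. These held 19 of the 28 nominally lower members, which is 21.6% of the 88, while 17.9% of all genes in the same classes were lower. Outside them 9 of 107 members were lower, 8.41% beside 5.68% of all genes there. With the trend over length removed by an offset per gene, 22 members were nominally higher and 19 lower (11.3% and 9.74%, against 8.72% and 6.57% of all genes in that fit), and their median was 0.06. For many genes named below the value after that removal is therefore given. A gene given without it may have moved too.

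**Figure D2:**
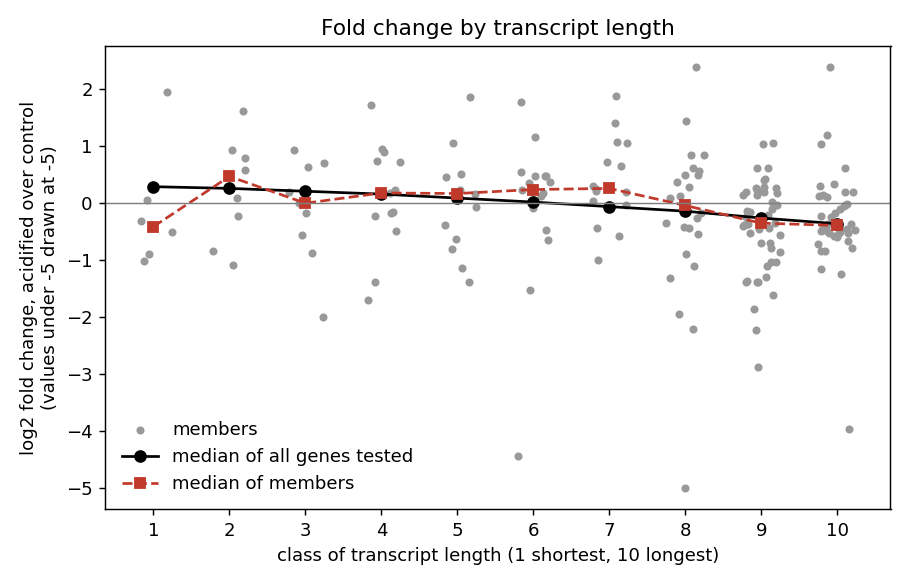
Grey points are the log2 fold changes of the 195 tested genes by class of transcript length (1 shortest, 10 longest), black circles the median of all genes in that class and red squares the median of the members. The all-gene median goes from 0.29 in class 1 to -0.36 in class 10, and in classes 9 and 10 the members' medians, -0.35 and -0.39, lie near it.

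Collagens as a family showed no common direction. Collagens are triple-helical matrix proteins, and type I is the fibre-forming kind. Of 34 tested, 16 lay above 0 and 18 below, with a median log2 fold change of -0.03. Nominally higher were 5 and lower 2 (14.7% and 5.88%, against 9.29% and 8.13% of all genes). Only 2 were nominally higher without acidified 1, acidified 2 or control 2, and the lower count ran from 0 without control 2 to 3 without control 3. The most abundant was a collagen alpha-2(I)-like gene (Mve01G005090, chromosome 1, 14264255 to 14265595). Its level was 124, 480 and 598 in the acidified libraries and 735, 507 and 1330 in the controls. The groups overlap, acidified 1 is far below the rest and control 3 far above. The log2 fold change was -1.08 ± 0.58 (SE, unadjusted p = 0.0995 in edgeR's test). Its transcript is in length class 2, and without the length trend the value was -1.35 (unadjusted p = 0.0486 in edgeR's test). Before that removal, the 5 tested type I-like chains all lay below 0, with a median of -0.51, and 0 of them were nominally lower. The neighbouring alpha-2(I)-like gene (Mve01G005080) was at 21.5, 63.7 and 105 against 88.1, 27.7 and 158, so that it too was highest in control 3.

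The summed level of all collagens was 947, 1580 and 1430 in the acidified libraries and 1710, 1500 and 2370 in the controls. The alpha-2(I)-like gene alone gave between 13.1% and 56.2% of that sum. Without it the sums were 823, 1100 and 830 against 980, 994 and 1040, and the groups overlapped in both versions. Muscle markers, whose part in this was not tested, summed to 14700, 12200 and 11300 in the acidified libraries and 14100, 14900 and 7740 in the controls.

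Type IV collagen forms the sheet of the basement membrane, and its 2 genes lie side by side on opposite strands of chromosome 15 (3423855 to 3551243). Type IV collagen Mve15G001170 was at 32.5, 26.8 and 29.9 in the acidified libraries and 40.9, 46.6 and 39.4 in the controls. Collagen alpha-2(IV) (Mve15G001160) was at 72.1, 61.6 and 71.0 against 77.8, 90.0 and 79.2. For both genes every acidified library was below every control. The log2 fold changes were -0.49 ± 0.18 (unadjusted p = 0.0256 in edgeR's test) and -0.25 ± 0.17 (unadjusted p = 0.178). Both transcripts are in length class 10, and with the length trend removed they stood at -0.12 and 0.12 (unadjusted p = 0.505 and unadjusted p = 0.495 in edgeR's test).

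Other collagens lay on the higher side. A short-chain collagen C4 gene on an unplaced contig (Mveptg000268l_1G000190) was at 15.7, 45.2 and 42.8 in the acidified libraries and 13.7, 10.5 and 4.09 in the controls. It was the 1 DESeq2-called collagen (log2 fold change 1.88 ± 0.53, DESeq2 adjusted p = 0.00495, edgeR adjusted p = 0.162). The groups do not overlap, but acidified 1 is close to control 1. The C4 family had 14 genes and no shared direction: another member, Mve11G004050, had a log2 fold change of -0.87 ± 0.37, and the abundant Mve09G011460 was at 121, 236 and 166 against 152, 215 and 287. Collagen alpha-1(XII), which in vertebrates associates with collagen fibrils (Mve12G004580), was at 48.1, 43.0 and 44.9 in the acidified libraries and 25.5, 33.7 and 35.3 in the controls, a log2 fold change of 0.54 ± 0.19 with no overlap (unadjusted p = 0.0243 in edgeR's test). Of 16 tested type VI-like chains, 9 lay above 0 and 7 below with a median of 0.22, and 3 were nominally higher, all with overlapping groups.

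**Figure D3:**
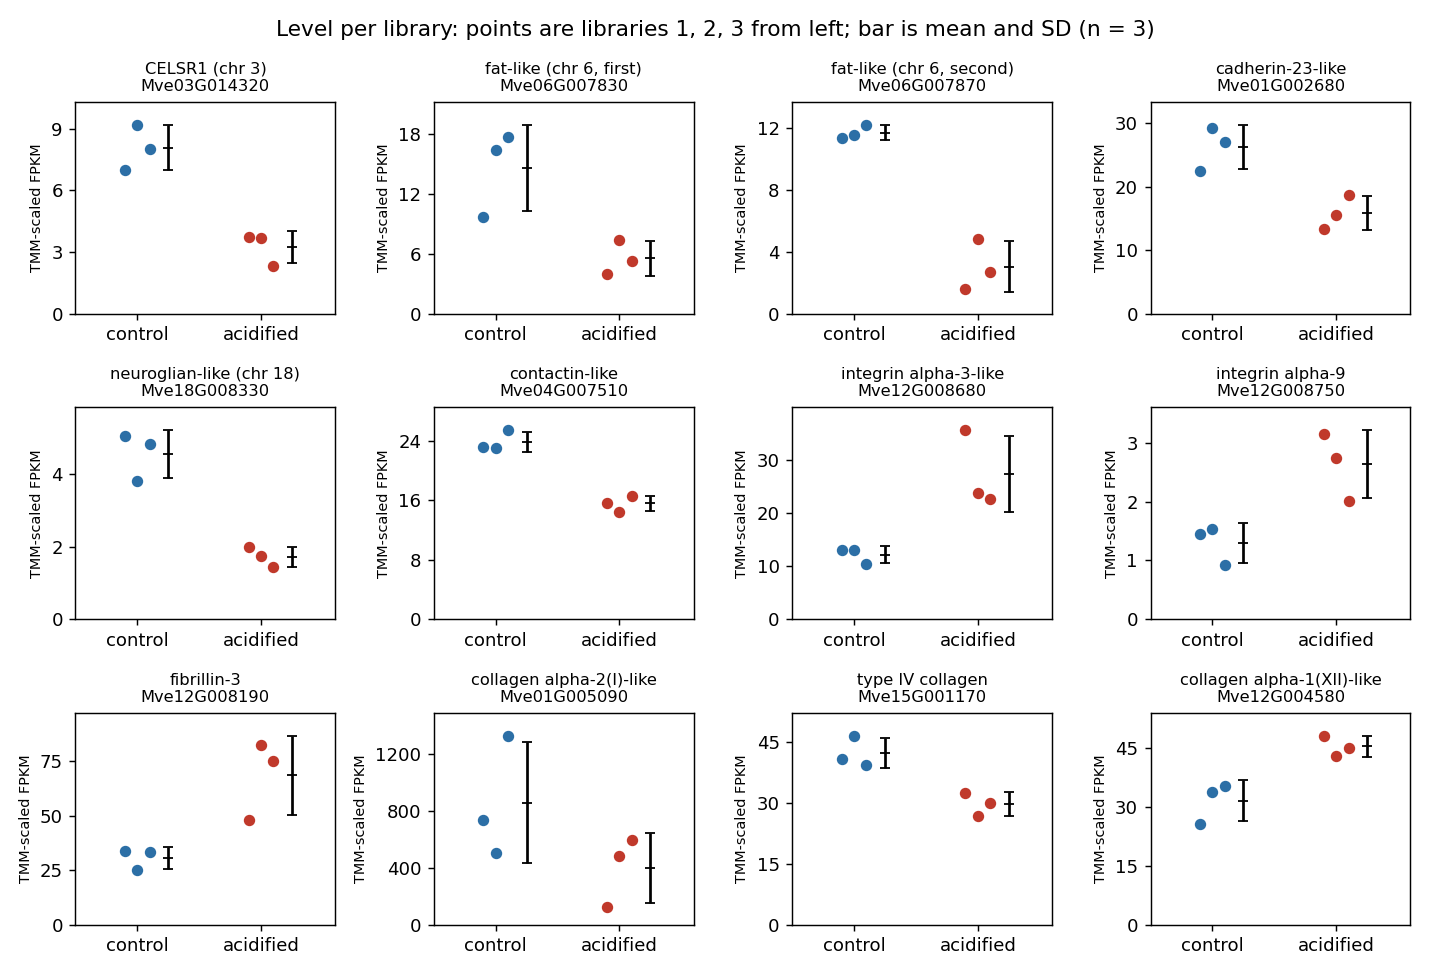
Level of 12 genes in each of the 6 libraries, in TMM-scaled FPKM on axes that start at 0, with the mean and SD of each group (n = 3) beside the points. The upper row, neuroglian, contactin and type IV collagen are lower in every acidified library than in any control, the integrins, fibrillin-3 and collagen XII are higher, and collagen alpha-2(I) overlaps.

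The enzymes matched by the words prolyl 4-hydroxylase and procollagen are of several kinds. Of 9 tested, 2 are subunits of the collagen prolyl 4-hydroxylase, at 0.23 and -0.39, and 2 are a lysyl hydroxylase and a galactosyltransferase of collagen, at -0.24 and 0.25, all without a nominal difference. A further 4 are transmembrane or HIF prolyl 4-hydroxylases, whose textbook substrate is the transcription factor HIF and not collagen, and a probable prolyl 4-hydroxylase 3 stood at -0.22. One of those was nominally lower: a transmembrane prolyl 4-hydroxylase (Mve18G005150) at 1.22, 1.23 and 0.971 in the acidified libraries and 2.30, 2.01 and 1.82 in the controls (log2 fold change -0.81 ± 0.31). A second gene of that description (Mve11G010590) had 0.93 ± 0.59. The median of the role was 0.23. It was -0.08 when libraries were scaled by size alone, where the median of all genes was -0.33. With TMM scaling it was -0.09 without acidified 1 and -0.10 without acidified 2, so no direction is given. Outside the matched genes, the 28 genes for secretion, cross-linking and matricellular partners of collagen held 15 tested, of which 1 was nominally higher and 0 were lower. The higher one was a papilin-like gene (Mve08G015420) at 591, 778 and 330 against 232, 291 and 153, with a log2 fold change of 1.34 ± 0.36 (DESeq2 adjusted p = 0.0064). Papilin is a secreted matrix glycoprotein of basement membranes. Peroxidasin (Mve03G013840), which cross-links type IV collagen, had -0.34 ± 0.16 with groups that do not overlap (16.7, 16.0 and 16.9 against 21.6, 20.2 and 21.8), and -0.02 without the length trend.

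Of the other basement membrane proteins, laminins are multi-chain adhesion proteins and nidogen bridges laminin to type IV collagen. Laminin beta-1-like Mve08G016010 was at 0.817, 0.725 and 0.344 in the acidified libraries and 1.34, 1.58 and 1.62 in the controls. It was DESeq2-called, with a log2 fold change of -1.25 ± 0.34 (DESeq2 adjusted p = 0.025, edgeR adjusted p = 0.157). Nidogen-1 (Mve02G003350) was at 7.48, 7.51 and 7.75 against 10.3, 10.3 and 11.7, a log2 fold change of -0.49 ± 0.16 (edgeR adjusted p = 0.202). Both transcripts are in length class 10, and without the length trend the values were -0.90 and -0.11. The 2 groups do not overlap for either gene. The other tested nidogen had a log2 fold change of 1.62 and was not nominally higher. The 2 nidogens summed to 8.06, 19.1 and 10.5 against 10.8, 14.6 and 11.7, which overlap. The 4 laminin chains summed to 6.55, 4.78 and 4.0 against 5.85, 7.12 and 6.02. The sum over this role without the laminin receptor was 35.1, 41.4 and 30.6 against 36.2, 41.6 and 31.4, and the groups overlap. It includes genes named neither laminin subunit nor nidogen.

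One gene in the laminin group is of another kind. The laminin receptor (Mve01G012690) was the most abundant of all members, at 3290, 4250 and 3240 in the acidified libraries and 2460, 2420 and 2160 in the controls. Every acidified library was above every control, and it was DESeq2-called (log2 fold change 0.63 ± 0.17, DESeq2 adjusted p = 0.0161, edgeR adjusted p = 0.154). Without the length trend the value was 0.45 (unadjusted p = 0.0272 in edgeR's test). The table's pathway term for this gene is Ribosome: the protein of this name is also ribosomal protein SA of the small subunit. It was left out of the laminin sum.

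Fibrillins form elastic microfibrils, and hemicentins are very large immunoglobulin-domain proteins of basement membranes. Fibrillin-3 (Mve12G008190, chromosome 12, 28185572 to 28197802) was at 48.0, 82.6 and 75.2 in the acidified libraries and 33.8, 24.9 and 33.2 in the controls. The lowest acidified library stood above the highest control, and it was DESeq2-called, with a log2 fold change of 1.17 ± 0.25 (DESeq2 adjusted p = 0.00104, edgeR adjusted p = 0.12). Of the 6 tested fibrillins, 3 lay above 0 and 3 below, with a median of -0.25.

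The hemicentin family had 51 genes, and 31 of them were tested, with a median of -0.06. Hemicentin-1-like Mve13G001230 was at 2.57, 1.38 and 1.52 in the acidified libraries and 3.54, 4.91 and 3.83 in the controls (log2 fold change -1.14 ± 0.33). Hemicentin-2-like Mve02G014280 was at 2.09, 1.72 and 1.0 against 3.29, 2.83 and 4.32 (-1.10 ± 0.33). Both were DESeq2-called on the lower side, with DESeq2 adjusted p-values of 0.0469 and 0.043. Another gene, Mve13G007800, lay the other way at 14.8, 10.8 and 12.4 against 5.17, 6.18 and 9.35 (0.90 ± 0.28). The most abundant, Mve07G010980, was at 15.3, 15.3 and 14.4 against 18.9, 14.2 and 18.6, and overlapped. Reads from genes this alike may be shared, so single values are uncertain.

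A fibronectin domain-containing gene (Mve04G002830, chromosome 4, 7660186 to 7667450) was at 494, 461 and 323 in the acidified libraries and 187, 193 and 286 in the controls. The groups do not overlap and it was DESeq2-called (log2 fold change 0.95 ± 0.25, DESeq2 adjusted p = 0.0102, edgeR adjusted p = 0.151). The other 7 tested fibronectin-domain genes held 0 that were nominally higher or lower. The immunoglobulin and fibronectin type III gene Mve01G007810 came nearest on the lower side at -0.83 ± 0.39 (unadjusted p = 0.0705 in edgeR's test). Without the length trend this gene stood at -0.52 (unadjusted p = 0.216 in edgeR's test).

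Among receptors, 2 integrin alpha chains were higher and the other chains were mixed. Integrin alpha-3-like Mve12G008680 (chromosome 12, 29852299 to 29888658) was at 35.6, 23.8 and 22.6 in the acidified libraries and 13.0, 13.1 and 10.4 in the controls. It was DESeq2-called, with a log2 fold change of 1.19 ± 0.24 (DESeq2 adjusted p = 0.000522, edgeR adjusted p = 0.119). Its transcript is in length class 10, and without the length trend the value was 1.49. Integrin alpha-9 (Mve12G008750, 30144361 to 30178341 on the same chromosome) was at 3.16, 2.75 and 2.01 against 1.45, 1.53 and 0.916. It was DESeq2-called as well, with 1.04 ± 0.30 (DESeq2 adjusted p = 0.041, edgeR adjusted p = 0.165). Neither gene had overlapping groups.

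Of the 20 integrin genes, 8 lie on chromosome 12. An alpha-9-like pair just beyond Mve12G008750 stood at 0.62 ± 0.27 (Mve12G008840) and 0.12 ± 0.21 (Mve12G008830). Both transcripts are in length class 10. Without the length trend they stood at 0.96 and 0.47 (unadjusted p = 0.00707 and unadjusted p = 0.049 in edgeR's test). A second alpha-3-like gene, Mve12G011320, lay the other way at 1.43, 0.759 and 0.685 in the acidified libraries and 1.85, 1.69 and 2.73 in the controls (-1.10 ± 0.37, edgeR unadjusted p = 0.0196). Without the length trend this gene stood at -0.87 (unadjusted p = 0.038 in edgeR's test). The abundant beta chain, integrin beta-PS-like Mve12G007690, overlapped between groups at 18.8, 18.2 and 12.8 against 17.2, 14.8 and 17.5 (0.02 ± 0.20). Summed over alpha and beta chains the level was 115, 97.5 and 75 against 68.9, 69.3 and 77.8, where acidified 3 falls among the controls.

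All 20 integrin genes were tested, and 14 lay above 0. Their median of 0.22 became 0.38 with the length trend removed. With scaling by library size alone it became -0.07, where the median of all genes was -0.33. With TMM scaling, the integrin median was 0.00 without acidified 1 and 0.42 without acidified 3. The calcium- and integrin-binding protein 1-like gene (Mve03G000240), a small cytosolic partner, was at 11.4, 15.7 and 20.6 against 31.6, 19.8 and 22.7 (-0.62 ± 0.28). Haemocyte markers, whose cells carry integrins in other molluscs, summed to 461, 537 and 637 in the acidified libraries and 402, 347 and 355 in the controls, and their part in the integrin values was not tested.

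Proteins that link integrins to actin lay mostly on the other side from the 2 alpha chains. Of the 12 genes in this list, 6 (50.0%, against 8.13% of all genes) were nominally lower and 0 higher. In all, 9 lay below 0, with a median of -0.41. The list's median length class was 8, where 11.3% of all genes were nominally lower. DESeq2 called 3 of the list, all lower, where it called 3.97% of all genes lower. Filamin-C (Mve15G004200), an actin cross-linker, was at 4.96, 5.13 and 4.19 against 8.71, 9.18 and 7.25 (log2 fold change -0.80 ± 0.19, DESeq2 adjusted p = 0.00616). Fermitin 2-like (Mve02G009680), a kindlin that activates integrins, was at 13.7, 10.9 and 10.2 against 17.5, 20.4 and 20.7 (-0.74 ± 0.20). Tensin-1-like (Mve19G000790), a link from integrin tails to actin, was at 4.37, 5.82 and 1.9 against 9.97, 10.3 and 8.06 (-1.22 ± 0.38). For these 3 no acidified library reached the lowest control. Without control 2, 3 of the 12 were nominally lower. With the length trend removed 5 were, against 6.57% of all genes in that fit. The list's median was then -0.27, and filamin-C stood at -0.50. In that fit a filamin-A-like gene (Mve15G006630) was nominally higher, at 0.97 (unadjusted p = 0.0369 in edgeR's test). The list was drawn up with earlier results of these data known.

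**Figure D4:**
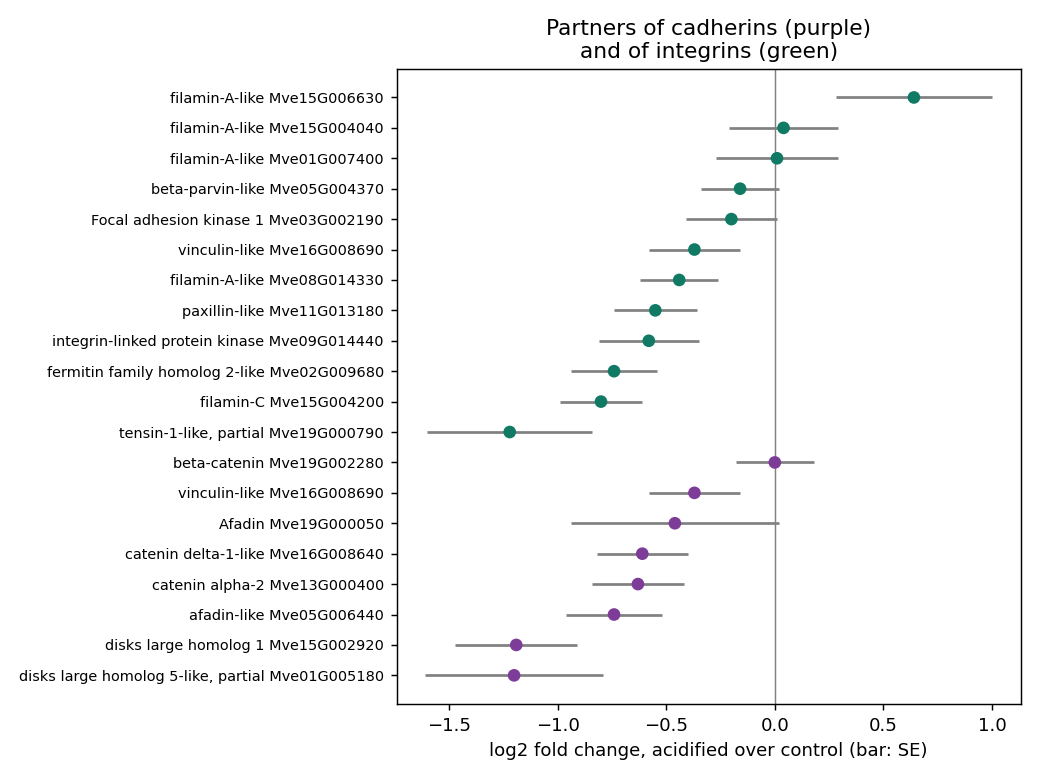
Log2 fold change (acidified over control) with its SE for the intracellular partners of cadherins (purple, 8 genes) and of integrins (green, 12 genes), with vinculin in both lists. Beta-catenin is at 0.00 and the other 7 purple points lie below it, and 9 of 12 green points are below 0.

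Of 41 cadherins tested, 25 lay below 0, with a median log2 fold change of -0.37, and 10 (24.4%, against 8.13% of all genes) were nominally lower and 1 higher. DESeq2 called 6, all lower, where it called 3.97% of all genes lower. Without acidified 2, 6 of 45 were nominally lower. The summed level was 151, 162 and 157 in the acidified libraries and 194, 213 and 204 in the controls, with no overlap. The length trend was not removed from this sum. Much of its difference comes from the adjacent genes Mve01G002680 and Mve01G002700, both in length class 10. The median cadherin transcript fell in length class 9, and with the length trend removed 4 were nominally lower and 4 higher (9.76% each), with a median of -0.07.

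Of the 10 nominally lower cadherins, 7 were of the giant kinds that set cell polarity in the plane of an epithelium in Drosophila and vertebrates, 3 of the flamingo type (CELSR) and 4 of the Fat type. Flamingo-type Mve03G014320 (chromosome 3, 47650833 to 47683016) was at 3.73, 3.69 and 2.34 in the acidified libraries and 7.01, 9.20 and 8.00 in the controls. The log2 fold change was -1.30 ± 0.25 (DESeq2 adjusted p = 0.000354, edgeR adjusted p = 0.118), and -1.09 without the length trend (unadjusted p = 0.00153). A second flamingo-type gene, Mve03G014350 (47740447 to 47756803), had no count in any acidified library and 315, 153 and 40 counts in the controls. With a floor of 3 counts per library it was at least 44.8-fold lower. It passed the filter through the controls alone, so its test carries no weight, and it is 1 of the 10 nominally lower and 1 of the 6 DESeq2-called cadherins. Both sit in a run of 4 such genes spanning 131.8 kb, of which Mve03G014360 overlapped (-0.37 ± 0.85) and Mve03G014340 had 6 counts in 1 library. Whether these neighbours are separate genes or pieces of 1 was not tested. Of 9 flamingo-type genes tested, 7 lay below 0.

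The Fat type was split. A pair of fat-like genes on chromosome 6 was lower. Mve06G007830 (25639623 to 25654401) was at 3.93, 7.39 and 5.31 in the acidified libraries and 9.64, 16.4 and 17.7 in the controls (log2 fold change -1.38 ± 0.32, DESeq2 adjusted p = 0.00387). Mve06G007870 (25884453 to 25901763) was at 1.58, 4.81 and 2.67 against 11.3, 11.5 and 12.2 (-1.95 ± 0.37, DESeq2 adjusted p = 9.27e-05). In both, acidified 1 was the lowest and no library crossed between groups, and without the length trend the values were -1.47 and -1.79. Protocadherin Fat 4 (Mve18G004750) was at 3.55, 3.68 and 3.81 against 9.02, 6.15 and 4.80 (-0.84 ± 0.26, DESeq2 adjusted p = 0.0466), and stood at -0.49 without the length trend. Yet 7 of the 11 tested Fat-type genes lay above 0, with a median of 0.20.

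Adjacent on chromosome 1 lie cadherin-23-like Mve01G002680 (7097201 to 7150231) and cadherin-87A Mve01G002700 (7157770 to 7217762), relatives of cadherins of hair-cell links and of insect epithelia. The first was at 13.4, 15.6 and 18.7 in the acidified libraries and 22.4, 29.3 and 27.1 in the controls (log2 fold change -0.71 ± 0.20, DESeq2 adjusted p = 0.0298). The second was at 19.7, 17.6 and 23.6 against 26.4, 34.4 and 36.6 (-0.66 ± 0.21). The groups do not overlap, but both transcripts are in length class 10, and without the length trend the values were -0.34 (unadjusted p = 0.162) and -0.29 (unadjusted p = 0.217) in edgeR's test. The most abundant cadherin lay on the other side: cadherin-23-like Mve19G002830 was at 31.6, 37.3 and 25.2 against 23.5, 24.4 and 19.1 (0.50 ± 0.21, unadjusted p = 0.0426 in edgeR's test).

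The partners of cadherins inside the cell lay mostly lower as well. Of 8 genes, 5 (62.5%, against 8.13% of all genes) were nominally lower and 0 higher. For 6, all lower, the groups did not overlap, as for 13.4% of all genes. DESeq2 called 2, both lower, where it called 3.97% of all genes lower. The list's median length class was 9.5, and 17.9% of all genes in classes 9 and 10 were nominally lower. Beta-catenin (Mve19G002280), the partner of classical cadherin tails, had overlapping groups: 55.4, 56.1 and 61.5 in the acidified libraries and 54.8, 52.3 and 68.6 in the controls (log2 fold change 0.00 ± 0.18). Discs large 1 (Mve15G002920), a polarity scaffold, was at 1.22, 1.65 and 0.904 against 2.71, 3.15 and 2.86 (-1.19 ± 0.28, DESeq2 adjusted p = 0.0116). Afadin-like Mve05G006440, which ties junctions to actin, was at 4.94, 3.40 and 5.19 against 7.53, 7.55 and 7.86 (-0.74 ± 0.22, DESeq2 adjusted p = 0.0385). Alpha-2 and delta-1 catenin stood at -0.63 ± 0.21 and -0.61 ± 0.21. The median of the list was -0.62. With the length trend removed it was -0.36 and 1 gene, discs large 1 (-1.09), was nominally lower, while afadin-like stood at -0.36. Without acidified 3, control 1 or control 3 the count was 3.

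Tight junction genes gave few values. Of 4, 2 were tested: ZO-1-like Mve17G004640, a junction scaffold, at 2.92, 3.63 and 2.74 against 2.94, 2.52 and 3.25 (0.11 ± 0.20), and tight junction-associated protein 1-like Mve02G018160 at -0.48 ± 0.42. The ZO-1-like transcript is in length class 10. Without the length trend the 2 genes stood at 0.49 and -0.58 (unadjusted p = 0.041 and unadjusted p = 0.208 in edgeR's test). A claudin-1-like gene had too few counts to test.

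**Figure D5:**
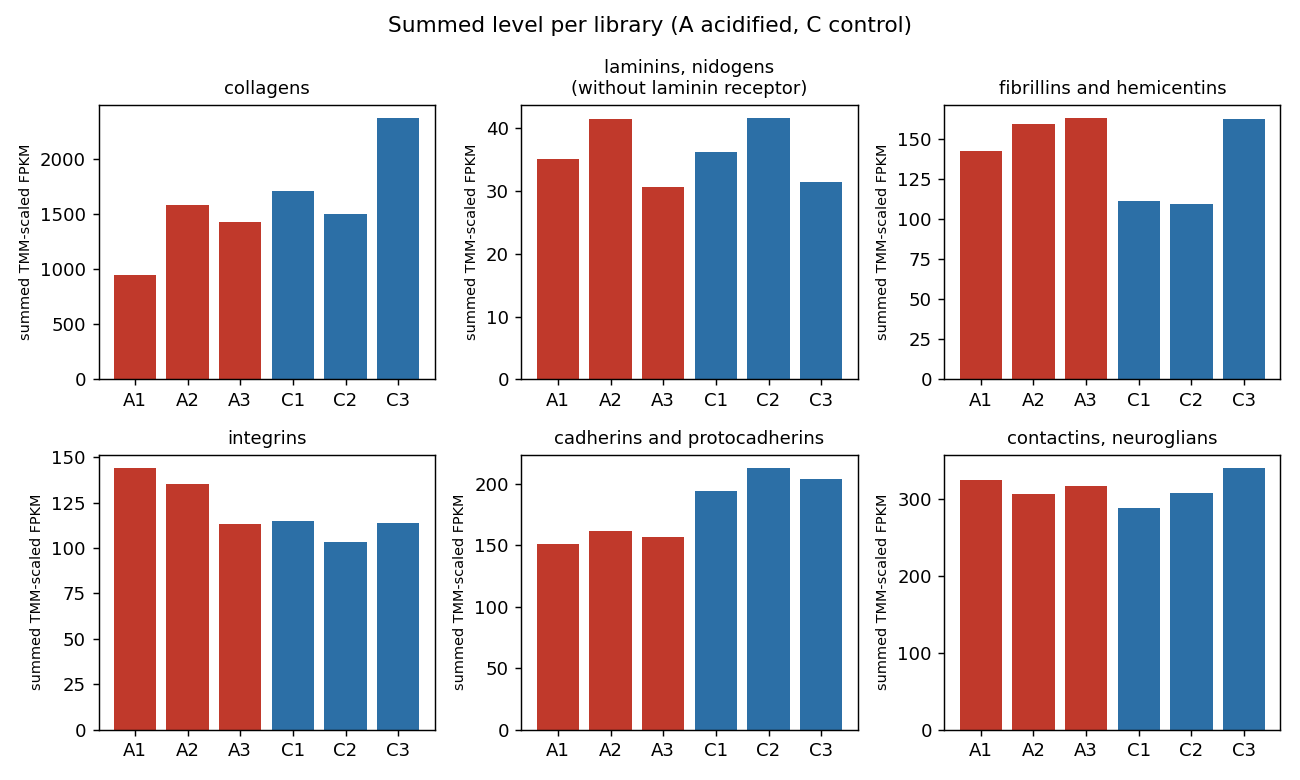
Summed TMM-scaled FPKM of 6 roles in each library, acidified (red, A1 to A3) and control (blue, C1 to C3), on axes that start at 0. The cadherin sums do not overlap between groups (151 to 162 against 194 to 213), while the collagen, laminin, fibrillin and hemicentin, integrin and contactin sums do. The length trend was not removed from these sums.

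Contactins and neuroglians are immunoglobulin-domain adhesion proteins, known in insects for neurons and for the septate junctions that seal epithelia. All 20 genes were tested. Nominally lower were 6 (30.0%, against 8.13% of all genes) and higher 1 (5%, against 9.29%). DESeq2 called 3, all lower, where it called 3.97% of all genes lower. The median transcript fell in length class 9, where 15.1% of all genes were nominally lower. With the length trend removed 3 (15.0%, against 6.57% of all genes in that fit) were nominally lower. The median went from -0.17 to 0.01. Neuroglian-like Mve18G008330 (chromosome 18, 23544667 to 23587388) was at 1.98, 1.75 and 1.43 in the acidified libraries and 5.04, 3.80 and 4.82 in the controls. Its log2 fold change was -1.38 ± 0.22 (DESeq2 adjusted p = 3.97e-05, edgeR adjusted p = 0.118). Neuroglian-like Mve08G011660 was at 0.847, 0.558 and 0.801 against 2.54, 2.21 and 1.08 (-1.38 ± 0.38, DESeq2 adjusted p = 0.0248). Both had groups that do not overlap. Without the length trend Mve18G008330 stood at -1.1 and Mve08G011660 at -1.08.

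A neighbour of the second gene behaved differently. Neuroglian-like Mve08G011680 was the most abundant of this role at 172, 181 and 154 in the acidified libraries and 111, 139 and 152 in the controls (0.35 ± 0.18, unadjusted p = 0.092 in edgeR's test). It outweighs the low-level genes, so the summed level, 324, 306 and 317 against 288, 308 and 340, overlapped. Chromosome 4 carries 9 genes of this role. Contactin-like Mve04G007510 was at 15.7, 14.5 and 16.6 against 23.2, 23.1 and 25.5 (-0.60 ± 0.17, DESeq2 adjusted p = 0.0143), and Mve04G007940 at 49.5, 36.8 and 37.8 against 61.6, 59.1 and 65.1 (-0.56 ± 0.19). Each acidified library was below each control for both. Without the length trend they stood at -0.22 and -0.31 (unadjusted p = 0.216 and unadjusted p = 0.122 in edgeR's test). Another, Mve04G006840, lay higher at 1.14, 2.99 and 3.50 against 1.35, 1.25 and 1.10 (1.06 ± 0.40), though acidified 1 fell among the controls. Contactin-5-like Mve17G002460 had 0, 4 and 0 counts against 45, 63 and 15, and it too passed the filter through the controls alone. It is 1 of the 6 nominally lower genes of this role. Neuron markers summed to 408, 248 and 406 in the acidified libraries and 265, 196 and 193 in the controls, and their part was not tested.

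The proteases matched by the word disintegrin cut matrix and cell-surface proteins. Of 16 tested, 10 lay below 0 with a median of -0.49. Nominally higher was 1 and lower were 2 (6.25% and 12.5%, against 9.29% and 8.13% of all genes). ADAMTS18-like Mve06G013150 was at 0.256, 0.330 and 0.174 in the acidified libraries and 1.23, 1.28 and 1.11 in the controls. It had the smallest p of all members (log2 fold change -2.22 ± 0.35, unadjusted p = 0.000305, adjusted p = 0.118 in edgeR's test, DESeq2 adjusted p = 1.67e-05). A second gene of that description, Mve15G005760, lay the other way at 16.0, 50.1 and 22.1 against 18.2, 9.94 and 14.9 (1.04 ± 0.43). Without the length trend Mve06G013150 stood at -1.95 and Mve15G005760 at 1.38. Without these 31 proteases the members' median was -0.06, with 13 higher and 26 lower. Of 8 matrix metalloproteases and their inhibitors, Mve11G013960 was at 2.69, 1.69 and 0.896 against 4.42, 5.65 and 6.20 (-1.60 ± 0.41, DESeq2 adjusted p = 0.00998), and a matrix metalloproteinase-14-like gene, Mve15G000160, at 14.5, 14.5 and 13.5 against 9.04, 9.28 and 4.53 (0.91 ± 0.30).

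The tissue label was checked against markers. Over all genes 9.29% were nominally higher and 8.13% lower, and DESeq2 called 5.37% higher. The length trend was not removed from the marker counts and sums. Of 57 mantle epithelium genes 53 had counts, and 3 perlucin-like genes and a carbonic anhydrase II were at 0. Their sum ran from 1320 to 2730 in the acidified libraries and from 1010 to 1500 in the controls. Of 27 tested 5 (18.5%) were nominally higher and 0 lower, with 5 DESeq2-called. Of 17 haemocyte genes 0 were at 0, and of 11 tested 4 (36.4%) were higher and 0 lower. The median haemocyte transcript was in length class 2, where 15.7% of all genes were nominally higher. Of 33 muscle genes, 1 titin gene was at 0, and of 28 tested 1 was higher and 3 lower. Ciliated cell genes (80, of which 1 was at 0) summed to 567 to 636 against 474 to 604, with 8 higher and 9 lower of 78. Of 26 neuron genes 1 was at 0, and 1 was higher and 1 lower. Of 22 digestive gland genes 4 were at 0, and of 11 tested 2 were higher and 0 lower, with a sum of 437 to 586 against 326 to 412. Of 19 germ line genes 2 were at 0, and of 13 tested 1 was higher and 0 lower, with a sum of 42.3 to 47.7 against 34.4 to 40.6. The haemocyte, digestive gland and germ line sums did not overlap between groups.

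Adhesion genes lie on all 19 chromosomes, with 2 genes on unplaced contigs, and 209 of 282 share their description with another member. Genes of 1 role within 100 kb of each other form 30 clusters with 73 genes, the largest of 4. In 20 clusters at least 2 genes were tested, and in 13 of those all tested genes lay on the same side of 0. Only 6 of the 20 had at least 3 tested genes. The others were pairs, which can easily fall on 1 side, and a shared direction of neighbours was not tested. Among their annotation terms were calcium ion binding for 78 genes, homophilic cell adhesion for 52 and basement membrane for 20, and 45 carried the ECM-receptor interaction pathway.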

How the data were processed

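Reads were trimmed, aligned and assembled with cutadapt 1.9, HISAT2 2.2.1 and StringTie 2.1.6, per the submitters' processing notes, which also name DESeq2 and edgeR. The authors deposited, per the file headers, raw counts and FPKM per gene and library. The sources used here name no genome build, and 12 columns of other libraries were not used.

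Counts were tested with edgeR 4.0.16 in R 4.3.3 (filterByExpr, TMM, quasi-likelihood test of group, Benjamini-Hochberg over 17790 genes). DESeq2 1.42.0 on the same genes and limma 3.58.1 on log2 FPKM were alternatives. The edgeR and DESeq2 fits were tested on simulated data. Transcript length came from the ratio of count to FPKM, and its trend was removed by lowess offsets with a span of 0.3.

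Members, roles and lists were chosen with earlier results of these data known. Genes were named by rule: per role the 2 highest by level and the 2 smallest p per direction (1 of each for roles with fewer than 10 tested), every DESeq2-called member, every member with counts in 1 group and, per partner list, the smallest p per direction. Other named genes were chosen after their values were seen.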

Additional observations from a re-analysis of the deposited data

How the results depend on the processing

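With libraries scaled by size alone, 4 members were nominally higher and 45 lower (2.05% and 23.1%, against 3.24% and 17.7% of all genes), with a median of -0.41, where the median of all genes was -0.33. On log2 FPKM, limma gave 3 higher and 40 lower with a median of -0.33 (pseudocount 1, 30.5% lower against 21.0% of all genes). It gave 3 higher and 39 lower with -0.46 (pseudocount 0.1, 29.8% against 20.8%). With no filter, 4 of 266 members were higher and 48 lower (1.5% and 18%). Of the 17790 genes tested in edgeR, 3.33% were higher and 19.4% lower in that setting. DESeq2 called 1237 genes where edgeR called 0. With the length trend removed, 22 were higher and the median was 0.06. The replicate block gave 11 higher, 25 lower and a median of -0.17, and with the length trend removed as well 16 lower and 0.00. Libraries of the same number did not deviate together (r = 0.01, -0.04 and -0.01), so the numbers do not pair them. Leaving out 1 library at a time gave 10 to 14 higher, 21 to 29 lower, medians from -0.20 to -0.07, and 0 to 2 genes past the adjusted threshold, with both extremes of 2 genes and -0.20 reached without acidified replicate 1. DESeq2 size factors in edgeR gave 14 higher, 27 lower and -0.10. No filter on low counts gave 16, 31 and -0.17.

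Of 824 recomputed values for 52 named genes, 792 kept direction and side of the threshold, 23 passed it under DESeq2 and 9 changed sign. The ZO-1-like gene Mve17G004640 went from 0.11 to -0.22 with size scaling, -0.18, -0.23 and -0.18 in the limma settings and -0.01 without acidified replicate 2 (range with 1 library left out, -0.01 to 0.19). With the length trend removed it stood at 0.49. Size scaling put the median of all genes at -0.33. The protease Mve19G004830 went from 0.15 to -0.17 with size scaling and -0.21 in the 3 limma settings. Depth limits the 153 genes under a mean of 1, which include the 87 not tested.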
